A study of Drosophila melanogaster with 4 samples.

Results

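The genes CG6271, CG6277, CG6283, CG6295 and CG6296 form a row of lipase genes on 3R, the right arm of chromosome 3 of Drosophila melanogaster. They are 5 of the 14161 genes in the deposited tables, and each has a single transcript model there. They were chosen by name, because CG6271 and CG6277 had been seen to be much higher in larvae with an extra copy of another arm. Their differences between karyotypes are therefore given as a description, with no test.

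RNA was sequenced from larvae at the third instar, the last larval stage before pupariation. The groups were females trisomic for 2L, which is the left arm of chromosome 2, females with the normal chromosome complement, males trisomic for 2L, and males with the normal complement. The series names the normal larvae as Cantons, while no source used here gives the cross behind the trisomic larvae, so karyotype, strain and exact stage cannot be told apart. The labels name 4 biological repeats for each group, but the tables give 1 mean per group and gene, so no error or test could be computed and depth per sample is unknown. Because all RNA came from larvae with no tissue separated, more cells of a type and more RNA per cell cannot be told apart. The lipase genes lie outside the trisomic arm, and the karyotypes as labelled give them the normal copy number in every group.

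Pancreatic-type lipases are secreted enzymes that split dietary triacylglycerol into fatty acids and monoacylglycerol in the gut lumen. In the fly larva the midgut epithelium makes digestive lipases, proteases and glycosidases, and its enterocytes take up the products and pass lipid to the fat body. The enzymes of the 3R row are assigned to this family by sequence similarity, and no source used here describes their individual substrates.

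All 5 lipase genes were higher in trisomic than in normal females, and 4 of them were at least 1.5-fold higher in trisomic than in normal males, the exception being CG6277. Levels are read here as TPM, that is transcript shares scaled to a fixed total, with an allowance for transcript length. No source used here states the unit. Summed over the 5 genes, the level was 871 TPM in trisomic females and 133 TPM in normal females, a ratio of 6.54. In males the sum was 632 TPM in trisomic larvae and 79.9 TPM in normal larvae, a ratio of 7.91. The 5 genes did not share a common ratio, since single genes ranged from 2.76 to 26.4 times the normal level in females and from 1.34 to 22.0 times in males.

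CG6283, a predicted triacylglycerol lipase, was the gene whose ratio was closest between the sexes. It stood at 368 TPM in trisomic females and 33.8 TPM in normal females, and at 219 TPM in trisomic males and 20.7 TPM in normal males. These are ratios of 10.9 in females and 10.6 in males. On the scale of log2(TPM + 1), used for all changes, they are 3.41 and 3.34.

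CG6296, which has the longest gene model of the row in Release 6 of the genome annotation, stood at 199 TPM in trisomic females and 17.9 TPM in normal females, and at 249 TPM in trisomic males and 11.3 TPM in normal males. It was the only one of the 5 with a higher level in trisomic males than in trisomic females. Its change was 3.41 in females and 4.34 in males, a ratio of 22.0 in males. Among the 6308 genes with a mean of at least 10 TPM over the 4 groups, it took place 10 by size of increase in females and place 6 in males.

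CG6295 was the most abundant of the 5 genes in normal larvae and had a smaller relative difference. It stood at 174 TPM in trisomic females and 63.0 TPM in normal females, with a change of 1.45. In males it stood at 128 TPM in trisomic larvae and 33.5 TPM in normal larvae, with a change of 1.90. It took place 128 among increases in females and 117 in males.

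CG6271 was the scarcest of the 5 genes in normal larvae. It stood at 52.6 TPM in trisomic females and 1.99 TPM in normal females, and at 18.9 TPM in trisomic males and 1.47 TPM in normal males. The changes were 4.16 in females, place 4 of all increases, and 3.01 in males, place 37. The gene reached the mean of 10 TPM through the trisomic groups, as both normal groups lay below it. Each column also holds a value that many unrelated transcript models share. In normal females this value is 2.22 TPM, close to the level of CG6271. In normal males it is 0.845 TPM, further from the 1.47 TPM of CG6271. Set against those shared values in place of its own, the trisomic level would be 23.8 times higher in females and 22.4 times in males, so the ratios of 26.4 and 12.8 are uncertain in size.

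CG6277, the gene beside CG6271, had unlike values in the 2 sexes. It stood at 77.0 TPM in trisomic females and 16.5 TPM in normal females, a ratio of 4.66 and a change of 2.16. In males it stood at 17.3 TPM in trisomic larvae and 12.9 TPM in normal larvae, a ratio of 1.34 and a change of 0.39, below the 1.5-fold used here as the size of a difference. It took place 45 in females and place 1446 in males. The reason for choosing this gene thus holds for females, while in males CG6271, CG6283, CG6295 and CG6296 all had larger increases.

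**Figure D1:**
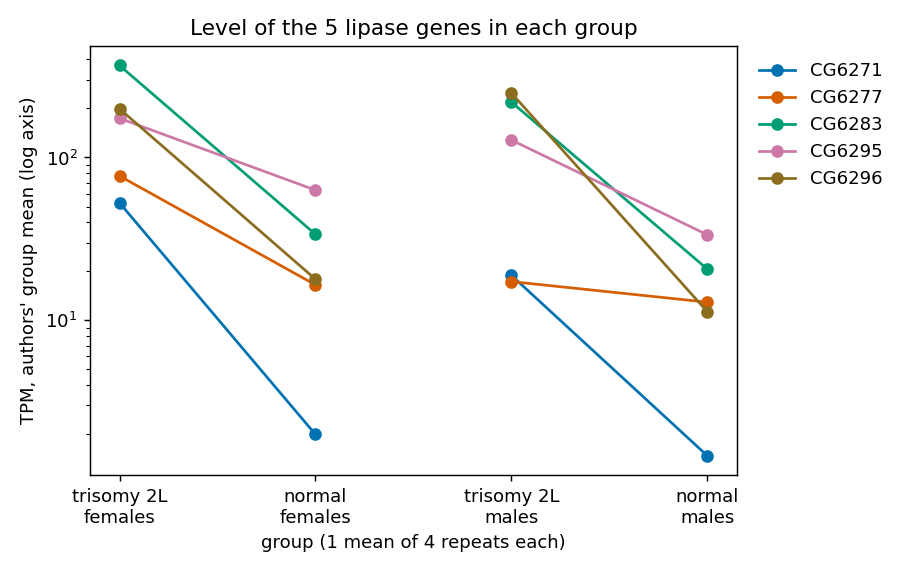
Level of each lipase gene in TPM (log axis) in the 4 groups. Each point is the authors' mean of a group, and a line joins trisomic and normal larvae of a sex. CG6277 in males has the flattest line, at 17.3 TPM in trisomic and 12.9 TPM in normal males.

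At least 1.5-fold higher in trisomic larvae were 5 of 5 genes in females, where 15.3% of the 6308 genes were, and 4 of 5 in males, where 17% were. Passing in both sexes were the same 4 genes, against 12.4% of all genes. At least 1.5-fold lower was none of the 5 in either sex, where 18.3% of all genes were in females and 29.5% in males. Since the row was chosen on this contrast, nothing is read from these counts. The median change of the 5 genes was 3.41 in females and 3.01 in males, beside -0.06 and -0.18 over all 6308 genes. Genes of 2R, 3L and 3R, which are not trisomic, had medians of -0.20 (females) and -0.31 (males). Relative to these medians, the lipase genes ran from 1.65 to 4.36 in females and from 0.70 to 4.65 in males. On this scale CG6277 passed 1.5-fold in males too, at 0.70.

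The order of the genes by level differed between karyotypes. In trisomic females CG6283 came first with 42.2% of the summed level, followed by CG6296 with 22.9%, CG6295 with 20.0%, CG6277 with 8.85% and CG6271 with 6.05%. In normal females CG6295 came first with 47.3%, followed by CG6283 with 25.3%, CG6296 with 13.4%, CG6277 with 12.4% and CG6271 with 1.496%. CG6295 thus held the first place in normal females and the third in trisomic females.

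In trisomic males CG6296 came first with 39.4%, followed by CG6283 with 34.6%, CG6295 with 20.3%, CG6271 with 2.99% and CG6277 with 2.73%. In normal males CG6295 came first with 42.0%, followed by CG6283 with 25.9%, CG6277 with 16.2%, CG6296 with 14.2% and CG6271 with 1.85%. The normal groups of both sexes agreed on the first, the second and the last gene. Neighbours in these orders, such as CG6296 and CG6277 in normal larvae, or CG6271 and CG6277 in trisomic males, cannot be called different, because the spread over repeats is not known.

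**Figure D2:**
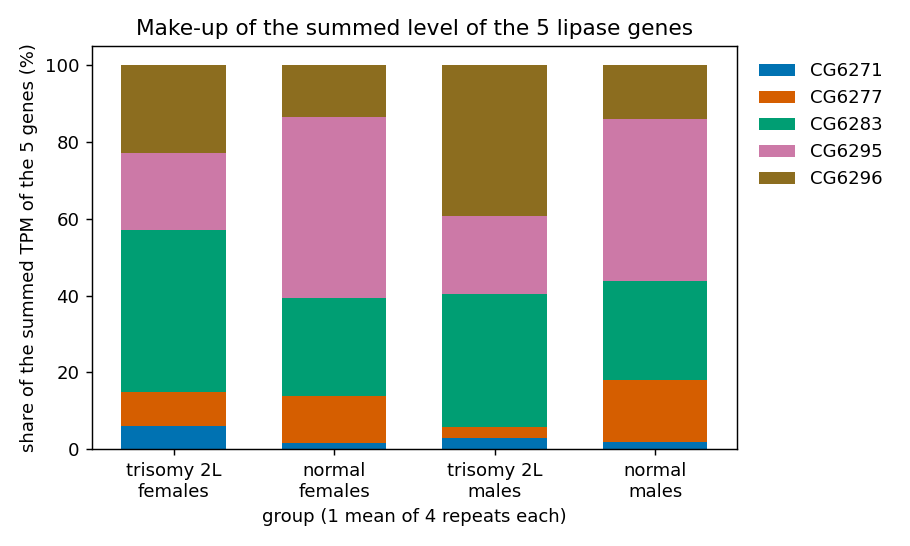
Share of each lipase gene in the summed TPM of the 5 genes (per cent), by group, from the authors' means. CG6295 fills 47.3% of the bar of normal females and 42.0% of that of normal males, but 20.0% and 20.3% in trisomic females and males.

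Males were then set against females of the same karyotype, first in normal larvae. The choice of genes did not use this sex difference, but it used the normal levels of CG6271 and CG6277. This contrast is therefore also given as a description. All 5 genes had lower values in normal males than in normal females, with ratios from 0.532 for CG6295 to 0.783 for CG6277. At least 1.5-fold lower were 3 of 5 (CG6283, CG6295 and CG6296), where 3.68% of the 6308 genes were, and none was higher, where 14.3% were. The median change of the 5 was -0.62, beside 0.05 over all genes. CG6271, whose value in normal females lies near the shared one, does not give a reliable ratio here. Without it the median of the other 4 was -0.65. Genes for digestive proteases and carbohydrases of the midgut also lay lower in normal males: 12 of 31 passed in that direction and none in the other, with a median of -0.51. The lipase genes and this list had the same direction, which was not tested.

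Between trisomic males and trisomic females the genes spread more widely. The values of CG6271 and CG6277 in trisomic females were among those behind the choice of the row, so this contrast is a description from which nothing is read. CG6277 stood at 17.3 TPM in trisomic males and 77.0 TPM in trisomic females, a ratio of 0.225, CG6271 had a ratio of 0.359 and CG6283 one of 0.596. These 3 of 5 were at least 1.5-fold lower, where 2.06% of the 6308 genes were, and none was higher, where 10.9% were. CG6295 had a ratio of 0.736 and CG6296 one of 1.25. Digestive proteases and carbohydrases showed no such lowering, with 2 of 31 higher, none lower and a median of 0.07.

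The change in males less the change in females was -1.76 for CG6277, -1.16 for CG6271, -0.06 for CG6283, 0.45 for CG6295 and 0.94 for CG6296. The middle 90% of the 6308 genes lay between -1.14 and 0.62. CG6277 lay below that range and CG6296 above it. CG6271 lay just below its end, but with the shared values in place of its normal levels its difference would be -0.63, inside the range. With 1 mean per group, this difference between the sexes was not tested. It is built from the changes for which CG6271 and CG6277 were chosen, so nothing is read from their places.

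**Figure D3:**
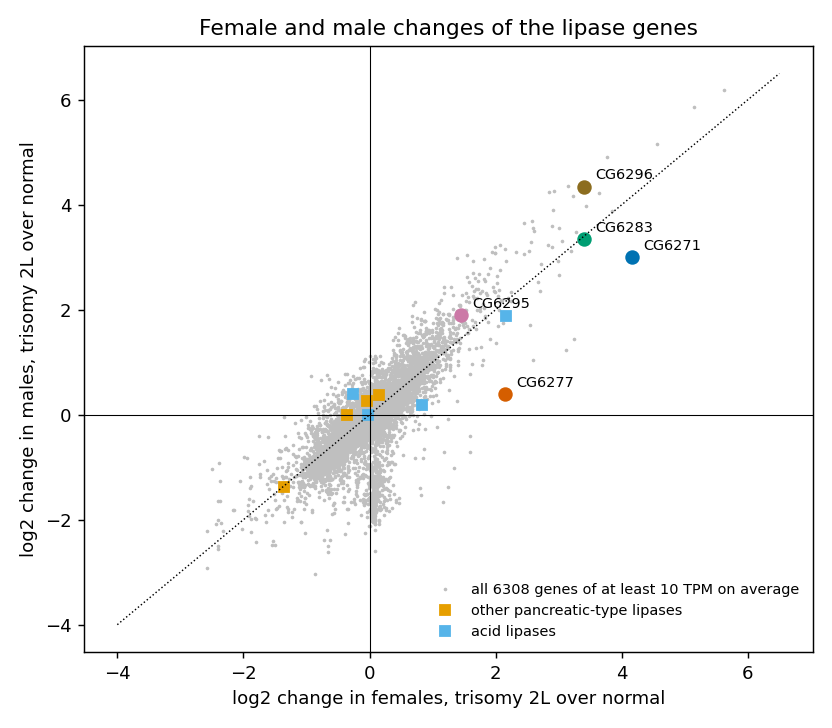
Log2 change of TPM + 1 in females (horizontal) and males (vertical), trisomy 2L over normal. Grey points are the 6308 genes with a mean of at least 10 TPM, large circles the 5 lipase genes, squares other lipase genes, and the dotted line marks equal change. CG6296 lies above the line, and CG6271 and CG6277 lie below it.

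In gene order the row runs CG6296, CG6295, CG17192, CG17191, CG6283, CG6277 and CG6271, taken from RefSeq Release 6 of the genome, which is a later build than the dm3 named for the deposited data. No coordinates are therefore given. In that release all 7 genes lie on the same strand, CG6296 has 3 exons and each of the others has 2. The 2 lipase genes in the middle were not among those chosen. CG17191 stood at 9.84 TPM in trisomic females and 8.95 TPM in normal females, and at 5.79 TPM in trisomic males and 3.94 TPM in normal males. These are changes of 0.12 and 0.46, below 1.5-fold. In males that is more than the 0.39 of CG6277. Relative to the 2R, 3L and 3R genes, CG17191 in males stood at 0.77, past 1.5-fold, beside 0.70 for CG6277. CG17192 lay at or under 0.247 TPM in all 4 groups, below the shared value of each column, so no change can be read for it. On both sides of CG17191 there were thus genes of the same family with larger changes.

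The genes flanking the row were barely detected. TwdlC and TwdlT, of the Tweedle family of cuticle proteins, had levels between 0.0630 and 0.707 TPM. The neuropeptide receptor gene RYa-R, whose span in Release 6 contains the entire lipase row on the opposite strand, lay between 0.0471 and 0.264 TPM. CG31077 (at most 2.81 TPM) and the neprilysin family gene Nep5 (at most 2.69 TPM) were also low. CG34292, further out, stood at 1.54 TPM in trisomic females and 0.0697 TPM in normal females, but at 3.04 TPM in trisomic males and 9.58 TPM in normal males. None of the 6 flanking genes reached the mean of 10 TPM. No source used here gives the strand setting of the counting, and near-identical stretches of the lipase genes may share reads, so the split between them is uncertain.

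**Figure D4:**
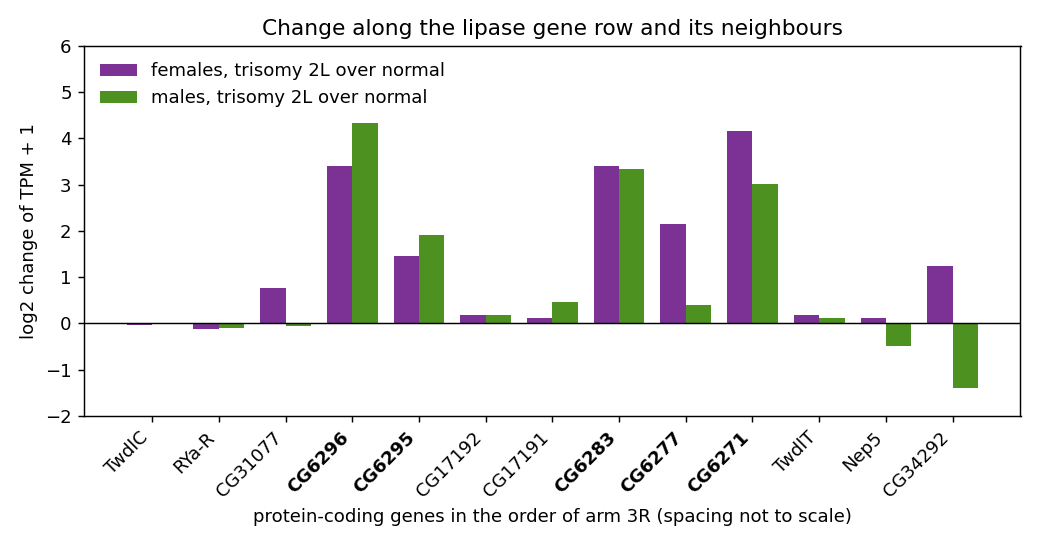
Log2 change of TPM + 1, trisomy 2L over normal, for the lipase row and 3 genes on each side, in arm order, in females (left bar) and males (right bar). The 5 chosen genes (bold) reach up to 4.16 in females and 4.34 in males. CG17192 and CG17191 between them stay at or below 0.46, but in males CG17191, at 0.46, lies above the chosen CG6277, at 0.39. TwdlC changes too little for its bars to be seen.

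Other lipase genes were then examined. The list held 25 further genes of the pancreatic type, including the yolk protein genes, which are related by sequence but encode no lipase activity, and 22 genes of the acid lipase type. Of the first type 4 reached a mean of 10 TPM. None of these 4 was at least 1.5-fold higher in either sex, although CG4267 in males was so relative to the 2R, 3L and 3R genes (0.68), and CG5966 was lower in both, at 23.9 TPM in trisomic and 62.95 TPM in normal females and at 20.3 TPM in trisomic and 54.5 TPM in normal males. CG4267, CG5162 and CG17292 had changes between -0.35 and 0.37.

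Of the acid lipases 4 reached the mean. Lip3 stood at 26.8 TPM in trisomic females and 5.20 TPM in normal females (2.17), and at 19.1 TPM in trisomic males and 4.48 TPM in normal males (1.87). CG8093 passed 1.5-fold in females (0.84), but not in males (0.19). The most abundant lipase gene was magro (CG5932), which encodes an acid lipase and cholesterol esterase secreted into the gut. It stood at 919 TPM in trisomic females and 1102 TPM in normal females, and at 1154 TPM in trisomic males and 876 TPM in normal males. Lip4 had changes of -0.02 and 0.00. Over the 8 genes the median change was -0.03 in females and 0.22 in males, beside -0.06 and -0.18 over all genes. Of these 8, 2 were at least 1.5-fold higher and 1 lower in females, and 1 and 1 in males. The shares over all genes were 15.3% higher and 18.3% lower in females, and 17% and 29.5% in males.

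Digestive enzymes of the midgut moved in both directions. Of 31 genes for trypsins, Jonah proteases, amylases and maltases, 8 were at least 1.5-fold higher in trisomic females and 11 lower, with a median of -0.18, where 15.3% of all genes were higher and 18.3% lower. Relative to the 2R, 3L and 3R genes the counts in females became 9 and 8. In males 14 were higher and 6 lower, with a median of 0.50, where 17% of all genes were higher and 29.5% lower, and the relative counts were 16 and 3. The 3 with the largest change averaged over the sexes were carbohydrases, although the trypsin gene epsilonTry (-2.41 in females) and the protease gene Jon25Bii (3.05 in males) exceeded some of them within a sex. The maltase gene Mal-A4 (CG8693) stood at 44.7 TPM in trisomic females and 3.75 TPM in normal females, and at 36.3 TPM in trisomic males and 2.34 TPM in normal males. The amylase gene Amy-p had changes of 2.14 and 3.15, and the maltase gene LvpL 1.90 and 2.79. Jon25Bi, Jon25Bii and Jon25Biii, counted above as higher in both sexes, lie on the trisomic arm.

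Midgut markers were compared next, 11 of the 13 listed being found by name, some of them enzymes counted above. Their summed level was 8637 TPM in trisomic females and 10127 TPM in normal females, and 8898 TPM in trisomic males and 7363 TPM in normal males. The protease gene Jon65Aiv made up 54.2% to 67.3% of these sums. Without it they were 3956 TPM in trisomic females and 3362 TPM in normal females, and 3747 TPM in trisomic males and 2406 TPM in normal males. None of the 11 was at 0, and the homeotic gene lab was the lowest, at 1.66 TPM in trisomic females and 1.02 TPM in normal females. Of the 10 that reached a mean of 10 TPM, 4 were at least 1.5-fold higher and 2 lower in females. In males 5 were higher and 2 lower. The shares over all genes were 15.3% higher and 18.3% lower in females, and 17% and 29.5% in males. The median change of the 10 markers was 0.06 in females and 0.53 in males. Among them Amy-p was 4.89 times and Jon25Bi, on the trisomic arm, 3.71 times higher in trisomic females. The 2 lower ones, in both sexes, were the trypsin genes alphaTry and betaTry. Their ratios were 0.336 and 0.432 in females, and 0.450 and 0.665 in males. Markers of other tissues differed as well. The sum of 4 glue genes of the salivary gland was 3403 TPM in trisomic females and 12382 TPM in normal females, that of 3 muscle genes 3559 and 1741 TPM, and that of 5 fat body genes 60747 and 51585 TPM, in the same order. In males the glue sum was 2583 TPM in trisomic and 11776 TPM in normal larvae, the muscle sum 4383 and 1425 TPM, and the fat body sum 45240 and 40182 TPM, although 3 of the 5 fat body markers were lower in trisomic males. The sum of 3 testis genes was 42.2 TPM in trisomic males and 160 TPM in normal males, and at most 0.536 TPM in females. The muscle gene Mhc and the fat body genes Lsp1beta and Fbp2 lie on the trisomic arm. The part of tissue make-up in the lipase differences was not tested.

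Genes that act on lipid after digestion were set beside the same shares over all genes (15.3% higher and 18.3% lower in females, 17% and 29.5% in males). Of 21 genes for lipid uptake, transport and storage, 2 were at least 1.5-fold higher and 7 lower in trisomic females, with a median of -0.36, and 3 higher and 3 lower in males, with a median of -0.32. After centring on the 2R, 3L and 3R genes, 4 were higher and 5 lower in females and 5 and 2 in males, so the balance rests on the scaling. Lsd-1, a coat protein of lipid droplets, stood at 164 TPM in trisomic females and 421 TPM in normal females, and at 132 TPM in trisomic males and 328 TPM in normal males. The adipose triglyceride lipase gene bmm, which releases stored fat inside cells, had changes of -0.96 in females and -0.97 in males. CG15828, the lipid transfer particle gene apoLTP, lies on the trisomic arm and was higher, with changes of 0.86 and 1.10.

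Regulators of gut and lipid genes were examined from a further list, of which 12 genes reached the mean. At least 1.5-fold higher were 2 in females, where 15.3% of all genes were, and 3 in males, where 17% were. Lower were 2 in females, where 18.3% of all genes were, and none in males, where 29.5% were. In females 2 of 12 is close to these shares. Relative to the 2R, 3L and 3R genes 3 were higher and 1 lower in females, and 5 and none in males. The sterol regulatory element binding protein gene HLH106 stood at 85.7 TPM in trisomic females and 39.6 TPM in normal females, and at 89.1 TPM in trisomic males and 34.8 TPM in normal males. Hnf4, a nuclear receptor gene on the trisomic arm, had changes of 0.78 and 0.998. The gene of the sugar-responsive repressor sugarbabe (sug) had changes of -0.95 in females and -0.27 in males. Hr96, the nuclear receptor gene known to regulate magro, was named outside the rule and had changes of 0.04 and 0.30.

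The genes whose pattern over the 4 groups was most like the mean of CG6271 and CG6277 were sought by Euclidean distance between centred log2(TPM + 1) profiles, over the 6308 genes without these 2. The nearest was PGRP-SC1a, of the family of peptidoglycan recognition proteins that break down bacterial cell wall, at a distance of 0.65. It stood at 29.99 TPM in trisomic females and 3.74 TPM in normal females, and at 15.8 TPM in trisomic males and 2.30 TPM in normal males. Next came CG13962 (distance 0.92), the acid lipase gene Lip3 (1.004), the cytochrome P450 gene Cyp309a1 (1.02) and CG15404 (1.05). Of these, CG13962, Cyp309a1 and CG15404 lie on the trisomic arm. CG6283 took place 16, CG6295 place 20 and CG6296 place 582, and the median gene lay at 2.92. With 4 values per gene, these distances are a description only.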

How the data were processed

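Both deposited tables, of autosomal and of X genes, give 1 row per transcript model and the authors' mean of each group, per the file headers. TopHat, HTSeq and build dm3 are named in the submitters' processing notes, and no source used here gives versions, annotation, strand setting or normalization. The deposited values sum to the same total, 1000000, in each column over both tables and are read here as TPM. Over 2384 genes with 1 model and a mean of at least 5 TPM, they did not rise with transcript length (Spearman rho 0.03 across genes), as values without a length correction might. This does not settle whether a length correction was made. Were the values not corrected, CG6296, with a longer model, would be overstated beside the other lipase genes. Between 373 and 645 models per column share 1 identical value.

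Models were averaged per gene. Changes are log2(TPM + 1), which understates changes of low genes. Genes with a mean of at least 10 TPM were counted at 1.5-fold. The genes and lists were chosen with earlier results of these data known. Named were the 5 lipase genes, 3 flanking genes a side and those between, and lipase list genes past 1.5-fold in either sex. Up to 3 genes of each other list by size of change and the 5 nearest profiles were also named. Added after their values were seen were CG4267, CG5162, CG17292, CG5932, Lip4, Hr96, CG11608, CG18284 and CG31872. The same holds for lab, alphaTry, betaTry, epsilonTry, Jon25Bi, Jon25Bii, Jon25Biii, Jon65Aiv, Mhc, Lsp1beta and Fbp2. Alternatives were pseudocounts of 0.1 and 5, no minimum, a threshold of 2-fold, centring on 2R, 3L and 3R genes, and sums or maxima over models; chosen after seeing the data were leaving out CG6271 or Jon65Aiv and setting CG6271 to the shared values. List names were matched through RefSeq synonyms. Steps were tested on simulated data. Python 3.11.15, numpy 2.4.6, pandas 2.3.3 and matplotlib 3.10.9 were used.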

Additional observations from a re-analysis of the deposited data

How the results depend on the processing

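Of 30 recalculated changes of the 5 lipase genes, 29 kept their direction and their side of 1.5-fold, with pseudocounts of 0.1 and 5 and after centring on autosomal genes outside 2L. Sums or maxima over transcript models are not counted, as they change nothing for genes with 1 model. The size of CG6271 moved with the pseudocount, from 3.04 to 4.66 in females and from 1.88 to 3.59 in males. The exception was CG6277 in males, at 0.70 after centring. Counts of other lipase genes were 2 higher and 1 lower of 8 in females, and 1 and 1 in males. With no minimum they became 11 and 3 of 47 in females and 7 and 2 in males. At that setting many values lie near those shared by unrelated models. Over all 14161 genes 2001 were then higher and 2020 lower in females, and 1767 and 3738 in males. With a 2-fold threshold 1 other lipase gene was higher in females, and after centring 3 were higher in males. Shares over all genes are not given here for a 2-fold threshold or centring, so list counts at those settings are a description. For digestive enzymes a 2-fold threshold left 7 higher and 6 lower in females and 9 higher and 3 lower in males, and centring left 3 lower in males. No paired analysis was possible because the tables hold group means, and for the same reason no repeat could be left out. No interval was computed, as the depth is unknown.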

Other observations

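Of the 18 acid lipase genes below the mean of 10 TPM, 7 had higher values in trisomic than in normal larvae of both sexes. In both sexes 3 had lower values, and 8 differed in direction between the sexes. Some of these directions come from the values that unrelated models share in a column. CG11608 held the shared value in all 4 groups, and CG18284 and CG31872 held it in both groups of females. At least 1.5-fold higher in both sexes were 4, picked out after their values were seen. The matching share over all genes below 10 TPM was not computed, so nothing is read from this count or from the directions. CG31091, on 3R, stood at 5.76 TPM in trisomic females and 0.114 TPM in normal females, and at 9.53 TPM in trisomic males and 0.0661 TPM in normal males. CG31089, also on 3R, stood at 2.59 TPM in trisomic and 0.128 TPM in normal females, and at 3.35 TPM in trisomic and 0.114 TPM in normal males. The size of these differences is uncertain in both sexes. In the trisomic female column 608 unrelated models share the value 2.81 TPM. The normal values of CG31091 and CG31089 lie far below the shared values of 2.22 TPM in normal females and 0.845 TPM in normal males. On the trisomic arm, CG2772 stood at 13.6 TPM in trisomic males and 1.83 TPM in normal males, and CG3635 at 15.2 TPM in trisomic males and 3.498 TPM in normal males.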
